A study of Mus musculus with 6 samples.

Results

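Naive-like CD8 T cells were the T cells of the draining lymph node that carried CD8 coreceptor transcripts, had little or no Ccl5 and had at most 1 of 6 interferon-induced genes. They were selected on their own transcript counts. A cell was taken if it had at least 1 UMI (unique molecular identifier, 1 captured transcript) over Cd3d, Cd3e and Cd3g, at least 1 over Cd8a and Cd8b1, and none of Cd4, Cd79a or Foxp3. It also had fewer than 2 UMIs of the chemokine gene Ccl5, and fewer than 2 of the 6 interferon-induced genes Ifit3, Isg15, Irf7, Oasl1, Slfn5 and Zbp1 were detected in it. This gave 1193 of the 19230 cells kept, or 6.204%.

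The study concerns PI3K gamma in antibody responses. Draining nodes came from 3 mice that were wild-type (WT) and 3 in which Pik3cg was knocked out (KO), all collected on day 34 of a schedule of 3 NP-Ova injections. NP-Ova is ovalbumin coupled to a hapten and was given in the adjuvant alum. For each node a negatively selected B cell fraction that had also lost its IgD-positive cells made up 70% of the sample, and unselected cells made up 30%. Hashtag antibodies labelled the cells by mouse, and the mixed sample filled 2 lanes of a droplet instrument. The mice are called WT1 to WT3 and KO1 to KO3, and these numbers are names that pair no animals. All 6 mice were immunized, so no comparison here concerns immunization itself. Strain, age, the deleted part of Pik3cg and the cell types in which it was deleted are not given in the sources used here.

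Naive CD8 T cells leave the thymus with a rearranged alpha-beta receptor and circulate between blood and lymph nodes until they meet antigen on MHC class I, which the CD8 coreceptor binds. They enter the node with the help of the chemokine receptor CCR7, and survive on interleukin 7 and on weak signals from self-peptides. PI3K gamma is a class I phosphoinositide 3-kinase that acts mainly below G-protein-coupled receptors; its catalytic subunit is encoded by Pik3cg.

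WT1 gave 212 naive-like CD8 cells, WT2 gave 365 and WT3 gave 265. The KO mice gave fewer, with 78 from KO1, 153 from KO2 and 120 from KO3. Lane 1 held 595 of them and lane 2 held 598, and no barcode sequence occurred among them in both lanes. Their summed depth ran from 232825 UMIs in KO1 to 1069186 in WT2, with a median of 2750 to 2931.5 UMIs per cell in each mouse. The CD4 T cells used for comparison met the same conditions with the coreceptors exchanged (Cd4 at least 1, Cd8a and Cd8b1 at 0). They numbered 540 cells, from 24 in KO1 to 139 in WT3, with medians of 2360 to 2580 UMIs. The gates leave out 1699 T cells in which neither coreceptor was detected and 28 in which both were.

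1 mouse stood apart before any result. In KO1 the interferon condition removed 34.8% of the CD8 coreceptor-positive cells, against 4.35% to 9.12% in the other 5 mice, so results that rest on KO1 are also given without it. The Ccl5 condition removed 5.76% to 9.12% of these cells in WT mice and 13.04% to 15.15% in KO mice. Each condition removed 132 of the 1433 coreceptor-positive cells, and 24 cells met both, which leaves the 1193 described here.

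The 4 markers that name the class were present, as the rule and the choice of markers require. Cd8b1, the beta chain of the coreceptor, had a UMI in 89.6% to 96.2% of the cells of each mouse and in 0.0638% to 0.173% of B cells. Cd8a, the alpha chain, was detected in 51.3% to 70.6%. Both chains were seen in 679 cells, Cd8b1 alone in 414 and Cd8a alone in 100, and 202 cells entered on a single coreceptor UMI. Dapl1, a gene typical of resting CD8 T cells, was detected in 36.3% to 51.3% and Themis, a signalling adaptor of T cell selection, in 50% to 65.4%. In CD4 T cells, Dapl1 was detected in 22.96% to 29.2% and Themis in 33.3% to 50%, so these 2 genes mark both classes to different degrees. Their levels in CPM (UMI counts scaled to one common library size for all mice) were 339 ± 65.7 against 159 ± 23.1 for Dapl1 and 405 ± 57.6 against 272 ± 46.3 for Themis (SD, n = 6 mice). These values are a description without a test.

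The label "naive-like" was checked against genes outside the rule. Lef1 and Tcf7, transcription factors of resting T cells, had a UMI in 74.2% to 79.1% and 52.6% to 65.4% of the cells of each mouse. Il7r, the interleukin 7 receptor, was detected in 50.5% to 59.5%, Ccr7 in 31.8% to 48.4% and S1pr1, the receptor for exit from the node, in 33.3% to 37.7%. B cells had Lef1 in at most 1.79% of cells, but Klf2 in 38.9% to 55.6%, at median depths of 1806 to 2596 UMIs, so Klf2 does not separate the lineages. Genes of the effector, memory and virtual memory list fell on both sides. Nkg7 had a UMI in 66.0% to 76.9% of the cells, Klrd1 in 39.7% to 50.9% and Ly6c2 in 24.5% to 42.3%. Others were less frequent: Cd44 in 12.5% to 19.8%, Il2rb in 7.19% to 16.7%, Eomes in 3.29% to 9.80% and Cxcr3 in 1.64% to 3.27%. B cells, which also use Cd44, had it in 14.3% to 23.8%. When every cell was thinned to 1000 UMIs, leaving out 14 shallower CD8 cells (9 from WT and 5 from KO mice), Lef1 stood at 38.2% to 46.0% and Cd44 at 3.31% to 7.202%. The gate was not separated further from memory cells that lack Ccl5.

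Cells just inside the Ccl5 limit differed from those without Ccl5 in some effector and memory genes but not in others. The 49 cells with 1 Ccl5 UMI held Ly6c2 at 1136 CPM, against 296 CPM in the 1144 cells with none and 1260 CPM in the 15 cells left out for exactly 2 alone. A further 2 of the 17 coreceptor-positive cells with exactly 2 also failed the interferon condition and are not in these sums. Ly6c2 encodes a surface antigen of memory-type CD8 T cells. Xcl1, a chemokine of activated CD8 cells, stood at 101, 17.5 and 43.5 CPM in the same order, from 17, 58 and 3 UMIs. Ctsw, Il2rb and Cd44 were also higher with 1 Ccl5 UMI than with none (331 against 200, 76.9 against 46.3 and 107 against 71.7 CPM). Nkg7, Klrd1 and Id2 were not (509 against 539, 178 against 228 and 35.5 against 63.8 CPM). Cxcr3, Eomes and Gzmm had at most 3 UMIs in the 49 cells. On the interferon side, the 303 cells with 1 of the 6 genes held 760 CPM of Ifi27l2a, against 566 in the 890 cells with none and 1535 in the 71 cells left out for 2 alone, out of 80 with exactly 2. These are sums over cells of all mice and carry no test, since the rule set the strata.

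Markers of other cell types were measured as summed lists. The summed B cell list (16 genes besides Cd79a, all detected) stood at 349 to 570 CPM in WT and 301 to 383 CPM in KO mice, against 29809 to 38300.5 CPM in B cells. Of 1193 cells, 5 had a productive B cell receptor contig, with 0 or 1 per mouse, against 74.0% to 80.3% of B cells. The natural killer markers Ncr1, Klrb1c, Klre1, Klra8 and Klra4 were at 0 in all 6 mice, and the summed list reached 79.3 CPM in WT3 and at most 4.30 CPM elsewhere. Gamma-delta T markers (6 of 9 detected, Tcrg-C1, Trdv4 and Il17a at 0) summed to 3.23 to 8.06 CPM in WT and 13.9 to 35.7 CPM in KO mice. Their part in the genotype results was not tested. Of the myeloid and dendritic list, 9 of 13 genes were detected, with Itgax, Itgam, C1qa and Csf1r at 0. It summed to 184 to 224 CPM in WT and 128 to 180 CPM in KO mice, without overlap, against 319 to 444 CPM in B cells. Its part in the genotype results was not tested either.

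The share of naive-like CD8 cells depended on what it was divided by. Of all kept cells it was 6.57%, 12.2% and 7.39% in WT1 to WT3 and 2.76%, 3.77% and 4.72% in KO1 to KO3. Every KO value lay below every WT value (8.72 ± 3.04% against 3.75 ± 0.981%, SD, n = 3 each), with a two-sided exact permutation p of 0.1, the smallest that 3 against 3 mice allow, and an adjusted p of 0.3 over 3 shares. This share counts B cells in its denominator, and it moves with how each mouse's enriched and untouched parts were mixed, which was not tested. Of the CD8 and CD4 T cells together, the naive-like CD8 share was 67.1%, 73.0% and 65.6% in WT and 76.5%, 65.4% and 67.8% in KO mice, and the groups overlapped (exact permutation p = 0.7, adjusted 0.7). Without KO1, which has only 24 CD4 cells, the KO mean of that share was 1.97 percentage points below the WT mean in place of 1.32 above it. Without WT3 the difference also turned sign, to 0.160 points below, and with a gate that admits no interferon gene and no Ccl5 the KO mean was lower too (a difference of -0.0493 points). Among CD8 coreceptor-positive cells, 88.7%, 87.5% and 83.3% were naive-like in WT and 59.1%, 83.2% and 83.9% in KO mice (exact permutation p = 0.2, adjusted 0.3). The difference of means was 11.1 percentage points with KO1 and 2.99 without it.

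**Figure D1:**
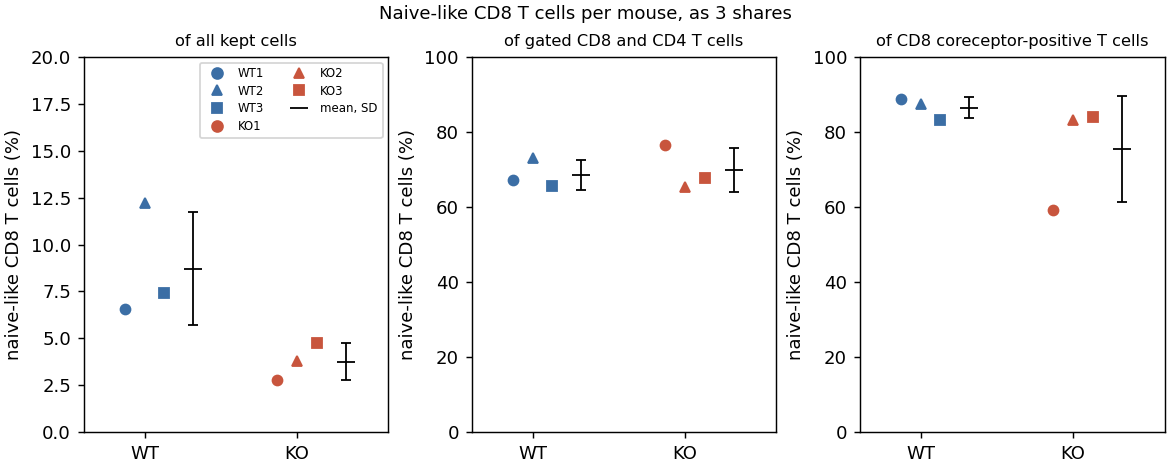
Naive-like CD8 T cells in each of the 6 mice as a percent of all kept cells, of gated CD8 and CD4 T cells, and of CD8 coreceptor-positive cells (vertical axes, percent); points are mice and bars the mean and SD of 3. Only the share of all kept cells has no overlap between WT (6.57% to 12.2%) and KO (2.76% to 4.72%), and KO1 lies apart at 59.1% in the last.

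Pik3cg (ENSMUSG00000020573, GRCm38 chromosome 12, 32173473 to 32208659, minus strand), the targeted gene, was not lower in KO libraries. Its level in the CD8 cells was 15.9, 19.7 and 23.9 CPM in WT1 to WT3 and 27.1, 28.7 and 13.7 CPM in KO1 to KO3, from 49 and 24 UMIs in all. The groups overlapped (log2 fold change of KO against WT 0.20 ± 0.37 SE, adjusted p = 0.956 with edgeR). The sign turned without KO2 (-0.095). A transcript outside the deleted part would still be counted, so this neither checks nor contradicts the genotype labels.

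Between genotypes, the naive-like CD8 cells differed in a short list of genes. Stress-induced chaperones and the AP-1 transcription factors Jun, Fos, Junb and Jund fell in KO mice, by 0.44 to 1.74 on the log2 scale. Pde2a, Plac8, Ly6a, Sidt1, Dapl1 and Igf1r rose, by 0.46 to 1.18. Of 5412 genes tested with edgeR's quasi-likelihood test (n = 3 mice each, Benjamini-Hochberg adjusted p under 0.05), 8 were higher in KO (0.148%) and 13 lower (0.24%). For 685 of the genes tested (12.7%) the 3 mice of one genotype did not overlap with those of the other. The count is unstable: DESeq2 called 4 genes, lane 2 alone 8, and the fit without WT2 called 10. Of the named genes, 17 lost their call with DESeq2, while Hspa1b, Jun and Pde2a kept it. In lane 2 alone 14 lost it, among them Fos, Hspa1a and Ppp1r15a. These sums over cells do not separate fewer cells that carry a transcript from less transcript per cell. Shares of cells with a UMI were not tested between genotypes.

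Hspa1a and Hspa1b encode the inducible HSP70 chaperones, which are switched on when proteins unfold. Hspa1b (ENSMUSG00000090877, chromosome 17, 34956436 to 34959238, minus strand) stood at 146, 131 and 182 CPM in WT1 to WT3 and at 49.7, 48.6 and 65.5 CPM in KO1 to KO3. The lowest WT mouse was above the highest KO mouse. Hspa1b fell by 1.46 ± 0.19 on the log2 scale (adjusted p = 2.3e-05, edgeR), and it stayed past the threshold in 17 of 17 alternatives. Hspa1a (ENSMUSG00000091971, chromosome 17, 34969190 to 34972156, minus strand) was at 66.7, 52.6 and 68.9 CPM in WT and 9.04, 22.1 and 19.1 CPM in KO mice. Hspa1a fell by 1.74 ± 0.30 on the log2 scale (edgeR adjusted p = 0.00124). Hspa1a passed in 14 of 16 alternatives and was lost with DESeq2 (adjusted p = 0.059) and in lane 2 alone (edgeR, 0.244). The 2 genes are near-identical neighbours. How the authors' counting treated reads that match both was not checked, so the level of each one alone is uncertain.

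Their likeness extends to the promoters, which are printed because these genes carry the clearest genotype difference. The sequences are the 250 bases before the RefSeq start (GRCm38.p6), 5′ to 3′ on the gene's strand, with the match to GAANNTTC in capitals. GAANNTTC is the inverted repeat unit of a heat shock element and reads the same on both strands.
Hspa1a, chr17:34972157-34972406, minus strand: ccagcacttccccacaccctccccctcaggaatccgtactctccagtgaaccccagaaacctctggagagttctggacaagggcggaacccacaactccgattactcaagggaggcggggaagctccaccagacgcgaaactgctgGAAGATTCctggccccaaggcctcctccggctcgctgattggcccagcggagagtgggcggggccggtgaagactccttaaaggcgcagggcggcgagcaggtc
Hspa1b, chr17:34959239-34959488, minus strand: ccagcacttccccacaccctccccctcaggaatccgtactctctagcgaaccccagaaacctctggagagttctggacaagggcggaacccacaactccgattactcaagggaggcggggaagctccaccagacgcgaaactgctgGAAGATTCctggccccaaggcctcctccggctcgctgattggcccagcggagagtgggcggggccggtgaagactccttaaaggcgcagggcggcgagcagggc
The 2 windows were identical at 247 of 250 positions, and in both the match began 104 bases before the start. GAANNTTC was present in 6.69% of all 32851 promoters of this length (in at least 1 promoter of 7.73% of genes). Among the 13 genes lower in KO, 12 had a promoter in the table and 3 held the motif, Hspa1a, Hspa1b and Jun. The first 2 are nearly the same sequence counted separately. The motif was not particular to the lower genes. Plac8 held it among the 7 higher genes with a promoter. So did Cst7, Epsti1 and Plac8, 3 of 11 with a promoter among the 15 genes with the largest excess over CD4 cells. The other orientation, TTCNNGAA, was in 7.17% of promoters, in Srgn among the lower genes and in Plac8 among the higher ones. A match is a description of letters and shows no binding.

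Of the whole heat shock and dissociation list, 3 of 12 tested members fell and none rose (median log2 fold change -0.30, against 0.00 over all genes tested). The third was Dnajb1, the HSP40 partner that delivers clients to HSP70, at 89.0, 98.6 and 105 CPM in WT and 36.1, 61.9 and 51.9 CPM in KO mice. The KO mice did not overlap with the WT mice (log2 fold change -0.89 ± 0.20, edgeR adjusted p = 0.0279), but the call held in 8 of 17 alternatives and was lost without KO1 (adjusted p = 0.153), KO3 (0.118), WT2 (0.113) or WT3 (0.0866). Hsph1, a nucleotide exchange factor of HSP70, did not pass at 47.9 to 58.3 CPM in WT and 18.1 to 37.6 CPM in KO mice (edgeR adjusted p = 0.243). Hspd1 and Dnaja1, which also serve protein folding, had log2 fold changes of -0.00 ± 0.19 and 0.01 ± 0.11. Of the 12 tested members, 11 had negative estimates, and 7 did not overlap between the genotypes, against 12.7% of all genes tested. Over 17 alternatives the list had 1 to 5 members lower and none higher. The list is named for dissociation as well, and cells were labelled by mouse before they were mixed. Whether the handling of each mouse's node contributed to these differences, or to those of the AP-1 genes below, was not tested.

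The early activation list behaved alike in its counts: 4 of 13 tested members fell and none rose, with a median of -0.44. Jun and Fos pair to form AP-1, which is induced within minutes of receptor signals or of cell stress. Jun was at 118, 147 and 170 CPM in WT and at 72.3, 70.7 and 46.4 CPM in KO mice, without overlap. Jun fell by 1.22 ± 0.19 on the log2 scale (adjusted p = 0.000224, edgeR), and it passed in 17 of 17 alternatives. Fos was at 77.9, 118 and 95.5 CPM in WT and at 36.1, 53.0 and 38.2 CPM in KO mice. Fos fell by 1.18 ± 0.22 on the log2 scale (edgeR adjusted p = 0.00406) and passed in 13 of 17 alternatives. Junb overlapped between the groups, since KO1 at 194 CPM lay above WT1 at 175 CPM (log2 fold change -0.70 ± 0.16, edgeR adjusted p = 0.0264). Jund was at 415 to 451 CPM in WT and 292 to 380 CPM in KO mice (-0.44 ± 0.10, edgeR adjusted p = 0.0386). Without WT2, only Jun of these 4 passed, with edgeR adjusted p of 0.0922 for Fos, 0.116 for Junb and 0.143 for Jund. Junb and Jund also lost their call without WT3 (0.161 and 0.164), KO2 (0.309 and 0.326) or KO3 (0.13 and 0.258).

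Of the 13 tested members of the early activation list, 11 had negative estimates and 2 positive ones, so not every immediate-early gene moved with AP-1. Egr1, which is induced by receptor signals through the MAP kinase pathway, was at 17.5 to 34.7 CPM in WT and 22.6 to 44.2 CPM in KO mice (log2 fold change 0.41 ± 0.31). Nfkbia, the NF-kB inhibitor, was at 97.7 to 113 CPM and 79.2 to 149 CPM. Cd69, a retention receptor of freshly activated lymphocytes, was at 55.6 to 66.7 CPM and 45.2 to 68.3 CPM. Tnfaip3, which restrains NF-kB, did not overlap between the groups but missed the threshold (-1.03 ± 0.28, edgeR adjusted p = 0.116).

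Further genes that were lower had roles in stress, cell cycle and granules. Ppp1r15a, which restores protein synthesis after stress by directing a phosphatase to eIF2-alpha, was at 69.9, 78.0 and 79.5 CPM in WT and 31.6, 37.6 and 24.6 CPM in KO mice. Ppp1r15a fell by 1.26 ± 0.24 on the log2 scale (edgeR adjusted p = 0.00406). TGANTCA, a form of the AP-1 site, was in 6.75% of all promoters, but in none of the 12 lower or 7 higher genes with a promoter. The promoter of Ppp1r15a is shown because, alone among the 12 lower genes, it held TGACGTCA, the palindromic cAMP response element. This motif, in capitals 12 bases before the start, was in 1.55% of all promoters.
Ppp1r15a, chr7:45526269-45526518, minus strand: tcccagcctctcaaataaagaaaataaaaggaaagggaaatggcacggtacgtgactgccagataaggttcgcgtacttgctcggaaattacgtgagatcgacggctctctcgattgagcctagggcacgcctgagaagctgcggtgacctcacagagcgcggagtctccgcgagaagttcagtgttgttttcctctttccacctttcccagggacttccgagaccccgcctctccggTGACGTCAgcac
Rgcc, a regulator of the cell cycle, was at 269, 331 and 225 CPM in WT and 99.4, 197 and 167 CPM in KO mice (-0.77 ± 0.15, edgeR adjusted p = 0.00617). Srgn, the core protein of granule proteoglycan, was at 297 to 349 CPM and 208 to 244 CPM (-0.54 ± 0.11, adjusted p = 0.0124 with edgeR). Rgcc was lost without WT2 (0.161), Srgn without WT2 (0.163), KO2 (0.0827) or KO3 (0.118), and Ppp1r15a without KO3 (0.0628). The predicted gene Gm11290, outside the naming rule and named here after its values were seen, was at 227 to 242 CPM and 104 to 137 CPM.

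Rnf144a and Odc1, both lower in KO, lie within 20 Mb of Pik3cg on chromosome 12. Fos, also lower in KO, lies on the same chromosome (85473890 to 85477273) but outside that window. Rnf144a, an E3 ubiquitin ligase gene 5.76 Mb away (chromosome 12, 26300964 to 26415254), was at 34.96, 30.99 and 37.12 CPM in WT mice. In KO1 it was at 0, and in KO2 and KO3 it was at 2.21 and 2.73 CPM. The pooled counts were 83 UMIs in WT and 2 in KO mice, a 17.8-fold ratio with a 95% counting interval of 4.76 to 149. Rnf144a passed with edgeR (adjusted p = 0.000124) and in 14 of 15 alternatives, but not with DESeq2 (adjusted p = 0.101). Odc1, which makes the first polyamine and is a MYC target, lies 14.6 Mb away and was at 35.8 to 41.3 CPM in WT and 6.63 to 16.4 CPM in KO mice (-1.73 ± 0.38, edgeR adjusted p = 0.0155), a call lost without KO2 (0.385) or WT2 (0.0922). Within 20 Mb of Pik3cg, 2 of 41 tested genes passed the threshold (4.88%), against 19 of the other 5371 (0.354%). At an unadjusted p under 0.05 the counts were 6 of 41 (14.6%) and 360 of 5371 (6.70%). Loss of Pik3cg and any linked sequence that came with the knockout allele cannot be told apart in this design.

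Among the genes that rose, Pde2a had the smallest p. It encodes a phosphodiesterase that breaks down cAMP and is itself stimulated by cGMP. Its level was 52.4, 63.9 and 62.3 CPM in WT and 163, 99.5 and 128 CPM in KO mice, without overlap (1.03 ± 0.19 on the log2 scale, adjusted p = 0.00181 with edgeR). Plac8, a gene of lymphoid and myeloid cells, did not overlap between the groups. It was at 66.7, 60.1 and 66.3 CPM in WT and 122, 122 and 112 CPM in KO mice (0.89 ± 0.17, edgeR adjusted p = 0.00514), but the call was lost without KO2 (0.0755) or WT2 (0.0719), in lane 2 alone (0.578) and with DESeq2 (0.146). Sidt1, a membrane protein of nucleic acid transport, was at 240 to 265 CPM and 314 to 407 CPM (0.51 ± 0.11, edgeR adjusted p = 0.0126). Igf1r, the receptor of insulin-like growth factor 1, was at 19.7 to 33.1 CPM and 39.8 to 72.3 CPM (1.18 ± 0.28, edgeR adjusted p = 0.0425). Sidt1 was lost without KO1 (0.079) or KO3 (0.118), and Igf1r without KO1 (0.163), KO3 (0.328) or WT2 (0.31). Of the 8 genes that rose, Pde2a was the only one called in each of the 6 refits without 1 mouse, and it was lost in lane 2 alone (0.159).

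Dapl1 and Ly6a also rose. Dapl1, one of the 4 markers, was at 237, 270 and 317 CPM in WT and 366, 396 and 366 CPM in KO mice (0.46 ± 0.11, edgeR adjusted p = 0.0424). Ly6a, which encodes the interferon-inducible antigen Sca-1, was at 58.8, 35.7 and 35.8 CPM in WT and 154, 92.8 and 57.3 CPM in KO mice. KO3 lay below WT1, so the groups overlapped (1.16 ± 0.25, edgeR adjusted p = 0.0124). The highest value came from KO1, the mouse with the most interferon-positive CD8 cells, and without KO1 Ly6a did not pass (edgeR adjusted p = 0.177), nor without KO2 (0.057) or WT2 (0.145). Dapl1, Dnajb1, Igf1r and Sidt1 were also lost without KO1, while 16 of the 21 genes kept their call. Dapl1 passed in 6 of 17 alternatives, and of the refits without 1 mouse only in that without WT3. Bcas3 and BE692007 rose too, at 54.0 to 55.7 against 58.7 to 113 CPM and at 101 to 119 against 127 to 197 CPM (edgeR adjusted p = 0.0425 and 0.0124). Bcas3 was lost without KO2 (0.549), KO3 (0.169), WT2 (0.163) or WT3 (0.0767), and BE692007 without KO2 (0.36), KO3 (0.0585) or WT2 (0.11).

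**Figure D2:**
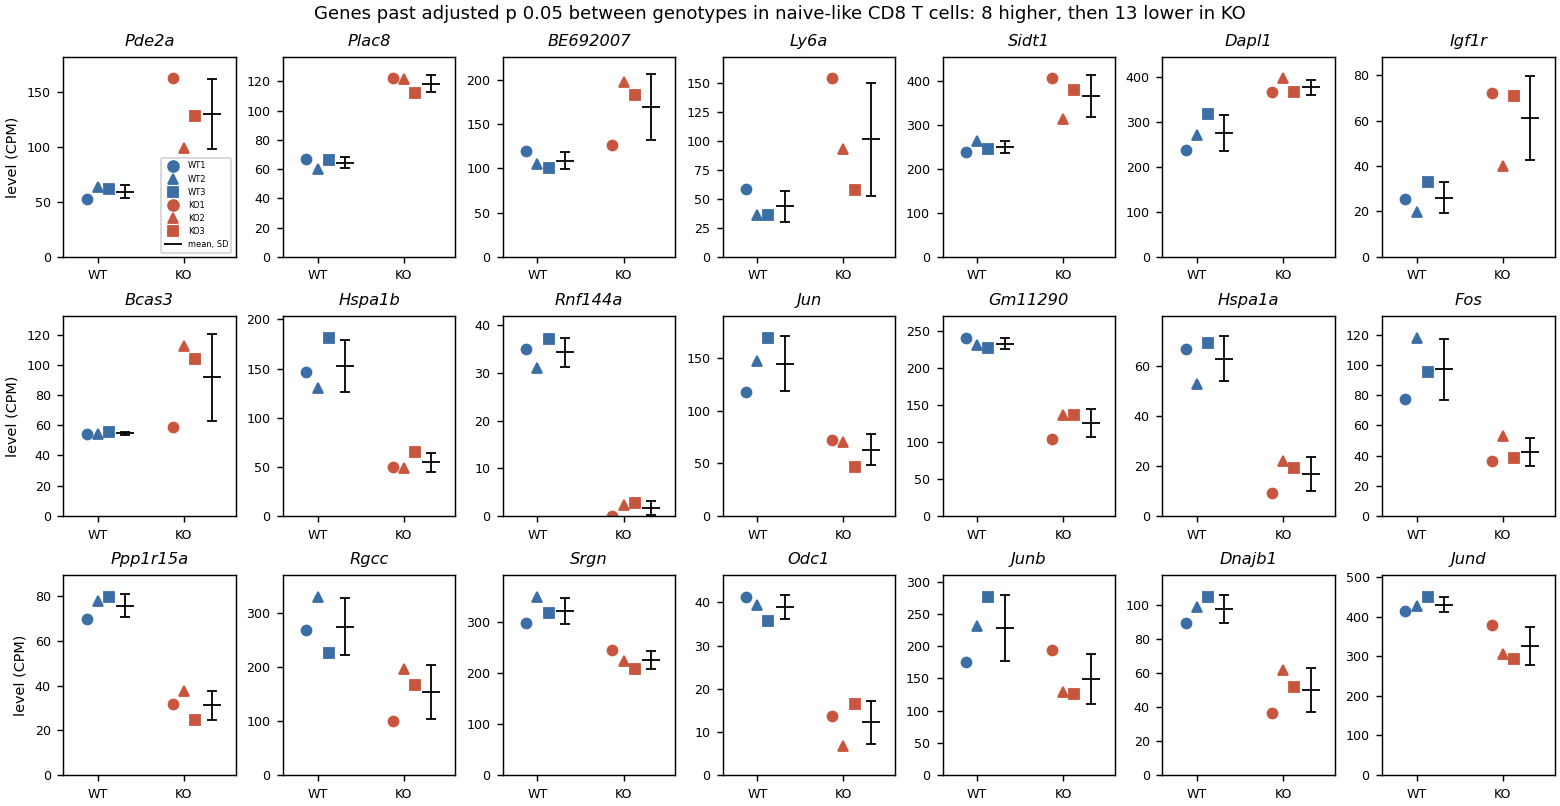
Level in CPM (vertical axes from 0) of the 21 genes past the threshold between genotypes, with 1 point per mouse and the mean and SD of 3 mice beside them; the 8 higher genes come first and the 13 lower ones follow. All but Ly6a and Junb have no overlap between the 3 WT and the 3 KO mice.

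Most programmes of naive T cells showed no call, but only 21 of the 5412 genes tested were called at all. Lists this short would hold few calls at that share, so an empty list says little about its programme. None of 14 tested PI3K genes passed, and Pik3cd, the catalytic subunit that dominates in lymphocytes, was at 239 to 246 CPM in WT and 224 to 249 CPM in KO mice (log2 fold change -0.04 ± 0.11). None of 14 genes known as targets or members of the FOXO pathway, which class I PI3K restrains, passed (median -0.02). Il7r came nearest, at 329 to 343 CPM in WT and 407 to 451 CPM in KO mice without overlap (0.39 ± 0.10, edgeR adjusted p = 0.0602). Klf2 was at 332 to 405 CPM and 265 to 447 CPM. Of 17 tested genes of the T cell receptor and its proximal signalling none passed, with estimates from -0.30 to 0.17. Of the effector and memory list 0 of 10 passed, including Ly6c2 at 290 to 327 CPM in WT and 333 to 547 CPM in KO mice (0.37 ± 0.12, edgeR adjusted p = 0.243). All 12 tested MHC class I genes had estimates between -0.19 and 0.09. A value that misses the threshold with 3 mice each does not show that the genotypes are alike.

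Whether the genotype effect was particular to CD8 cells was tested as a difference from CD4 cells of the same mice. Of 4905 genes, 2 passed (0.0408%), the receptor segment Trbv16 and the histone gene Hist1h2ap. None of the genes named above passed. In CD4 cells alone, 1 of 3149 genes passed between genotypes (0.0318%), and it was Hspa1b (-1.87 ± 0.27, edgeR adjusted p = 0.000753). The difference of its effect between the classes was 0.45 ± 0.36 (adjusted p = 0.948, edgeR). For Jun the CD4 estimate was -0.92 ± 0.32 and for Fos -0.72 ± 0.27, neither past the threshold. Srgn had a CD4 estimate of 0.02 ± 0.17 and Junb one of -0.19 ± 0.19, but their differences from the CD8 estimates did not pass (adjusted p = 0.514 and 0.694, edgeR). Odc1 came nearest of the named genes, with a difference of -2.84 ± 0.72 (edgeR adjusted p = 0.0954).

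Against CD4 T cells of the same 6 mice, naive-like CD8 cells had higher levels of genes of the cytotoxic lineage, of MHC class I presentation and of ribosomal proteins. They had lower levels of helper genes and of 7 of 16 tested genes of the T cell receptor and its proximal signalling. Of 4013 genes tested with the mouse as a block, 310 were higher in CD8 (7.72%) and 247 lower (6.15%). The 15 rule genes and the markers Dapl1 and Themis were left out of this test. Of 11 tested genes of the effector, memory and virtual memory list, 5 were higher in CD8 cells and 3 lower (Ly6c1, S100a6 and Lgals1). The regulatory T list without Foxp3 summed to 332 to 389 CPM in WT and 105 to 500 CPM in KO CD4 cells. In CD8 cells it summed to 87.3 to 166 and 77.3 to 145 CPM. Whether activation state contributed to the differences between the classes was not tested. DESeq2 called 309 genes and a single lane 246 or 266.

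Nkg7, a granule membrane protein of cytotoxic cells, had the smallest p. It was at 477 to 638 CPM in the CD8 cells of the 6 mice, and in CD4 cells it was at 11.3 CPM in WT2, 4.67 CPM in KO2 and 0 in the other 4 (log2 difference 7.22 ± 0.22, edgeR adjusted p = 1.82e-58). It had a UMI in 66.0% to 76.9% of CD8 cells, at most 1.23% of CD4 cells and at most 0.509% of B cells. Ly6c2 was at 302 to 573 CPM in CD8 cells, from 1170 UMIs, and at 0 UMIs in all CD4 cells. Taking 3 UMIs over the group as the floor, it was at least 154-fold higher. Its close relative Ly6c1 went the other way, at 0 to 11.5 CPM in CD8 and 57.9 to 163 CPM in CD4 cells (-4.81 ± 0.31, edgeR adjusted p = 1.6e-27). Ly6c1 had 12 UMIs in all CD8 cells and reached the filter on low counts through its CD4 counts. The 2 genes are similar in sequence, and how the counting assigns shared reads is uncertain.

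Other genes of the cytotoxic lineage were higher in all 6 mice. Klrd1, the CD94 chain of inhibitory and activating lectin receptors, was at 233 ± 26.3 CPM in CD8 and 17.3 ± 6.60 CPM in CD4 cells (SD, n = 6). Ctsw, a cathepsin of cytotoxic cells, was at 225 ± 34.0 and 32.5 ± 13.7 CPM. Runx3, the factor that maintains the CD8 lineage and silences Cd4, was at 133 to 184 CPM against 22.5 to 60.6 CPM (2.00 ± 0.17, edgeR adjusted p = 5.76e-19). Itgae, the alpha chain of the integrin that binds E-cadherin, was at 56.5 ± 14.4 against 12.9 ± 15.1 CPM. Of the 12 genes of the CD8 lineage list, 4 were tested, and all 4 were higher in CD8 cells: Nkg7, Ctsw, Runx3 and Itgae. They reached the filter on low counts through their CD8 counts, with 5, 44, 57 and 17 UMIs in all CD4 cells. The filter thereby favoured this direction, so the count is a description only. Adgrg5, Lcn4, Epsti1, Dnajc15, Fam241a, Tmem108, Cst7 and Cd7 were also among the 15 largest differences, by 1.71 to 5.30 on the log2 scale. Plac8, which was higher in KO CD8 cells, was 95.5 ± 31.5 CPM here and 2.53 ± 2.30 CPM in CD4 cells. Several of these also reached the filter through their CD8 counts. All CD4 cells held 2 UMIs of Adgrg5, 7 of Lcn4, 19 of Cst7, 33 of Cd7 and 4 of Plac8. The same holds for Klrd1 and Ly6c2, with 24 and 0 UMIs, so their place among the largest differences is a description only.

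RUNX proteins recognise the core TGTGGT, which was searched on both strands of the 250 bases before each start. Among the 15 genes with the largest CD8 excess, 11 had a promoter in the RefSeq table and 6 held the core in at least 1 promoter. These were Adgrg5, Cst7, Ly6c2, Nkg7, Plac8 and Runx3 itself. Among all 27025 genes in the table, 15.9% held it. This is a count of letters in a small set chosen for its levels and tests nothing about binding.

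The helper side was the mirror. Cd40lg, the ligand by which helper cells license B cells, was at 2.30 to 18.1 CPM in CD8 and 122.9 to 287 CPM in CD4 cells (-4.25 ± 0.23, edgeR adjusted p = 1.08e-33). St8sia6, a sialyltransferase gene, was at 0 to 4.91 CPM in CD8 and 48.5 to 169 CPM in CD4 cells (-5.30 ± 0.31, edgeR adjusted p = 1.86e-31). Of the 12 genes of the CD4 helper list 4 were tested, and Cd40lg, Cd28 and Il6ra were lower in CD8 and none was higher. Cd40lg had 27 UMIs in all CD8 cells, so it reached the filter on low counts through its CD4 counts. Izumo1r, the folate receptor 4 of regulatory and resting helper cells, was at 21.7 ± 15.9 against 106 ± 38.2 CPM. Runx1, the paralogue of Runx3, was at 98.8 ± 17.1 against 240 ± 41.6 CPM, opposite in direction to Runx3. Without CD4 cells that carried a follicular helper transcript, 411 genes were called, of which 386 were among the 557.

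Several receptor-proximal genes were lower in CD8 cells. Of 16 tested members of the T cell receptor list, 7 fell (Cd5, Cd28, Cd6, Cd247, Cd2, Trac and Fyn) and Ptpn22, a phosphatase that restrains receptor signalling, rose. The 7 include signalling components (Cd247, Trac and Fyn) as well as receptors that inhibit or costimulate. Cd5, an inhibitory receptor whose level follows the strength of self-recognition, was at 69.1 to 91.8 CPM in CD8 and 118 to 239 CPM in CD4 cells (-1.30 ± 0.13, edgeR adjusted p = 2.06e-15). Cd28, the main costimulatory receptor, was at 77.9 ± 10.2 against 169 ± 39.6 CPM. Cd6 was at 79.4 ± 13.8 against 144 ± 35.04 CPM. Trac, the receptor alpha constant gene, differed less, at 365 ± 27.5 against 444 ± 41.6 CPM (-0.29 ± 0.08).

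Genes of rest and homing did not move one way. Of 18 tested, 3 were higher in CD8 cells, among them Klf2 and Klf3, and 8 were lower, among them Igfbp4, Btg1, Bach2 and Foxo1. Klf2, which drives exit and homing genes, was at 366 ± 74.0 against 284 ± 102 CPM and higher in 5 of 6 mice. Igfbp4 was at 139 ± 12.6 against 314 ± 39.7 CPM and lower in 6 of 6. Ccr7 and Il7r did not pass, with differences of 0.02 ± 0.11 and -0.04 ± 0.09. Gpr183, the oxysterol receptor that positions cells at the edge of follicles, was at 34.5 to 89.3 CPM in CD8 and 101 to 180 CPM in CD4 cells. Ly6a was lower in CD8 cells in all 6 mice (75.6 ± 47.2 against 206 ± 65.8 CPM).

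Translation and presentation genes were moderately higher. Of 85 tested ribosomal protein genes, 75 were higher in CD8 and none lower, with a median of 0.25 against -0.00 over all genes. Over 19 alternatives 49 to 79 of them were higher and none lower. Rpl37a was at 17514.5 to 20331 CPM in CD8 and 13597 to 14915 CPM in CD4 cells. Of 12 MHC class I genes, 5 were higher (H2-Q7, Psmb10, B2m, Nlrc5 and Psmb8) and none lower. B2m, the light chain of class I, differed by 0.17 ± 0.05. Of 12 tested mitochondrially encoded genes, 6 were higher, led by mt-Nd2 at 593 ± 31.1 against 431 ± 57.1 CPM. CD8 cells were also the deeper ones (medians from 2750 UMIs against 2360 UMIs), and with all cells thinned to 1000 UMIs, 265 genes passed, 231 of them among the 557.

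Within the PI3K list, Pik3cd and Pik3ip1 were higher in CD8 cells and Inpp4b was lower, out of 12 tested. Pik3cd was at 235 to 260 CPM in CD8 and 126 to 254 CPM in CD4 cells (0.49 ± 0.11, edgeR adjusted p = 0.000304). Pik3ip1, an inhibitor of the pathway, was at 71.2 ± 8.02 against 44.1 ± 18.7 CPM. Inpp4b, a lipid phosphatase, was at 477 ± 40.7 against 701 ± 101 CPM and lower in 6 of 6 mice. Pik3cg had a UMI in 4.17% to 7.84% of CD8, 2.22% to 7.41% of CD4 and 7.40% to 9.95% of B cells. Several stress and AP-1 genes that were lower in KO were also lower in CD8 than in CD4 cells: Junb by 0.69 ± 0.10, Jun by 0.49 ± 0.13, Fos by 0.47 ± 0.15 and Hspa1a by 1.07 ± 0.18 on the log2 scale, with Jun and Hspa1a lower in 5 of 6 mice. Hspa1b was lower by 0.56 ± 0.13 (edgeR adjusted p = 0.000352), but in 4 of 6 mice only, since CD8 was higher in KO1 and KO3, and it passed in 15 of 19 alternatives. Jun passed in 13 of 19 alternatives and Fos in 10 of 18. Dnajb1 did not pass (-0.14 ± 0.15).

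**Figure D3:**
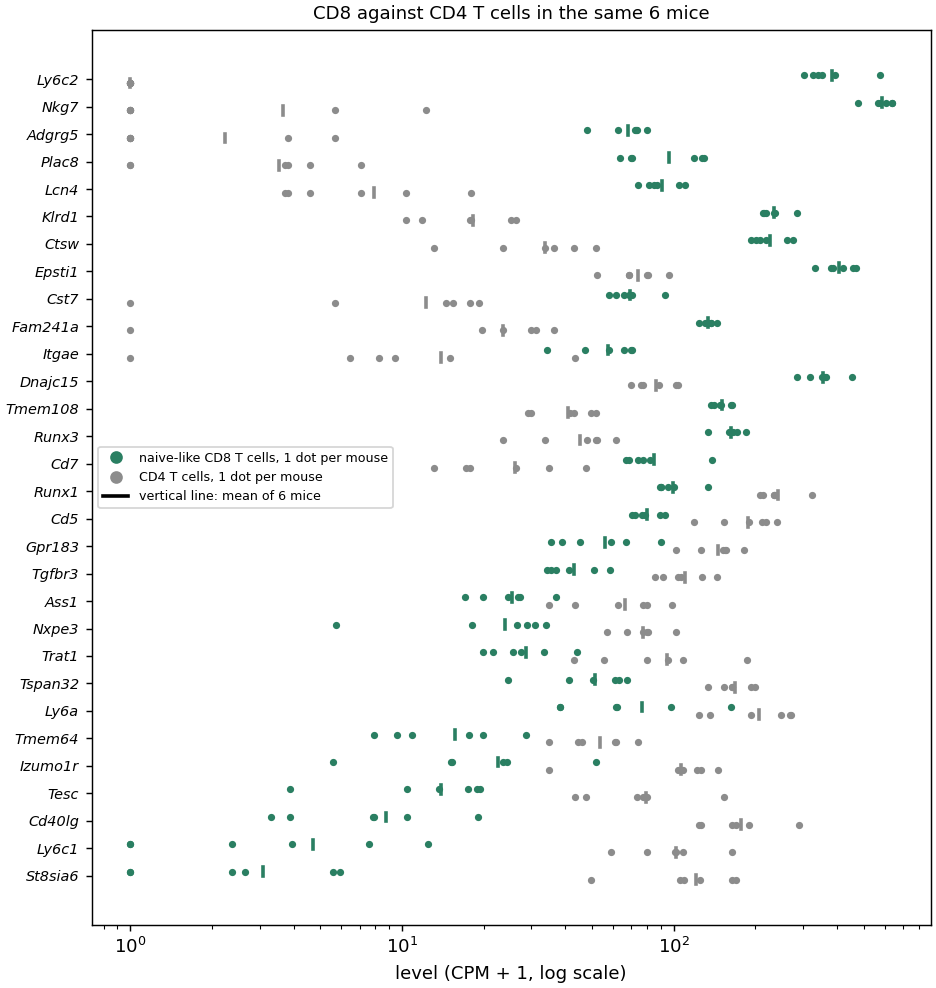
Level (CPM + 1, log scale) of the 15 genes with the largest excess in naive-like CD8 T cells and the 15 with the largest excess in CD4 T cells; each dot is 1 of 6 mice and vertical lines are means. Ly6c2 is at 0 in CD4 cells of all 6 mice, and the genes were chosen among those with 1 direction in all 6 mice.

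**Figure D4:**
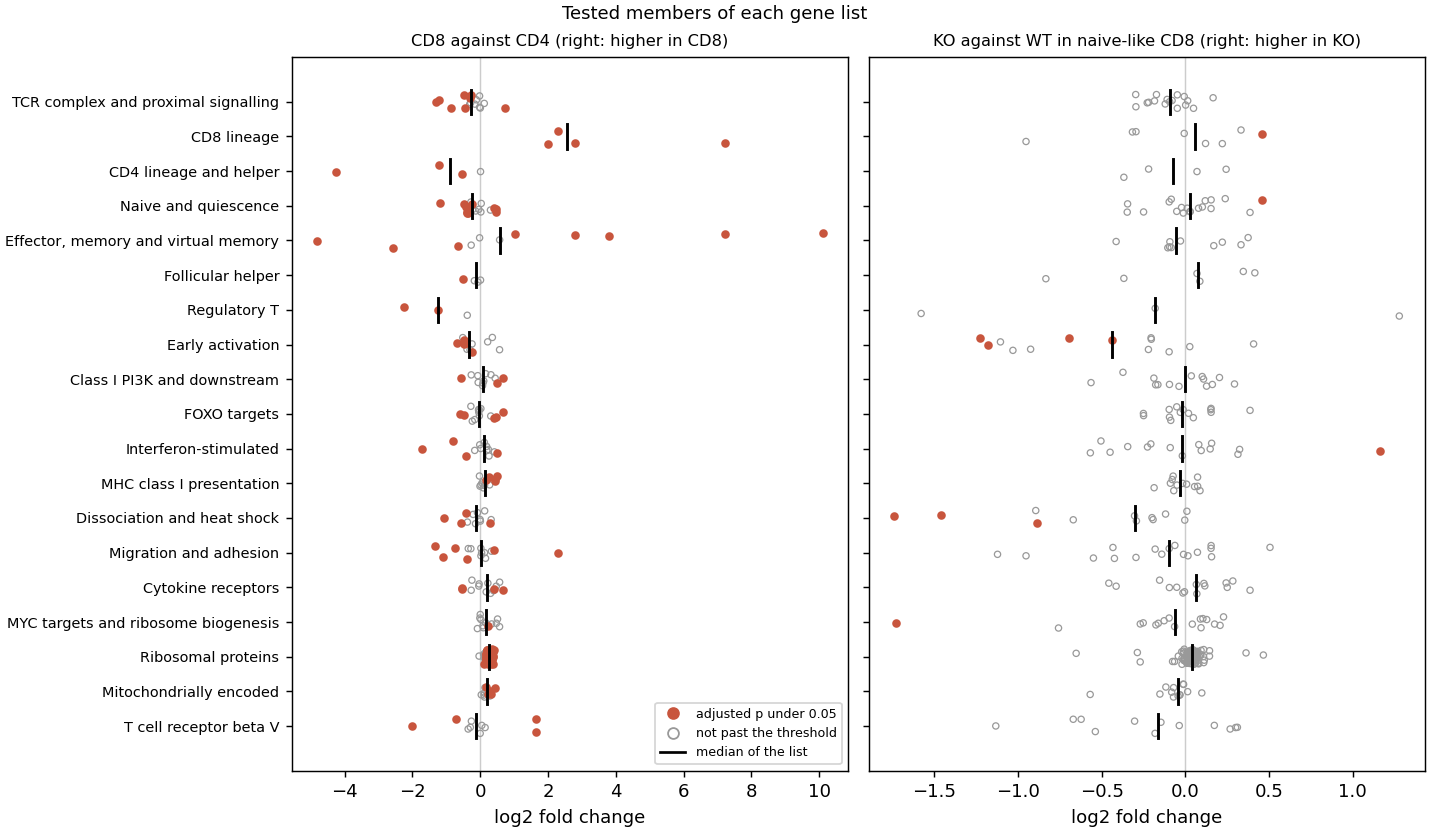
Log2 fold changes of every tested member of each gene list, CD8 against CD4 on the left and KO against WT within naive-like CD8 cells on the right; filled points have an adjusted p under 0.05 and black lines are list medians. Ribosomal proteins lie to the right of 0 on the left panel (75 of 85 called), while the calls on the right lie mainly in the early activation (4 of 13) and heat shock (3 of 12) lists.

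The receptor repertoire differed between the classes in V segments that the rule did not use. Of 10 tested beta V segments, Trbv12-2 and Trbv17 were higher in CD8 cells and Trbv31 and Trbv1 lower. As a share of all beta V UMIs (2094 in CD8 and 981 in CD4 cells), Trbv12-2 was at 5.73% to 14.7% in CD8 and 0.870% to 6.38% in CD4 cells, and higher in CD8 in 6 of 6 mice (1.64 ± 0.31, edgeR adjusted p = 9.53e-06). Trbv17 was at 1.57% to 10.1% against 0% to 7.83%, the last from KO3, where the order was reversed. Trbv31 was at 1.047% to 6.202% against 2.13% to 15.4% and lower in 5 of 6 mice (-2.01 ± 0.27, edgeR adjusted p = 7.91e-10). Trbv12-1, Trbv29 and Trbv2 were below the count filter and are described without a test. Trbv29 was at 1.55% to 9.51% in CD8 and 0% to 5.86% in CD4 cells, higher in 6 of 6 mice. Trbv12-1 was at 2.86% to 7.56% in CD8 and 0% to 2.34% in CD4 cells, higher in 6 of 6 mice, and Trbv2 was lower in 6 of 6 mice, at 0% to 1.57% against 1.25% to 7.03%. Of alpha V segments, Trav12-2 had 33 of 492 UMIs in CD8 and 0 of 275 in CD4 cells. KO1 contributed 24 CD4 cells, so its CD4 shares rest on few cells.

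**Figure D5:**
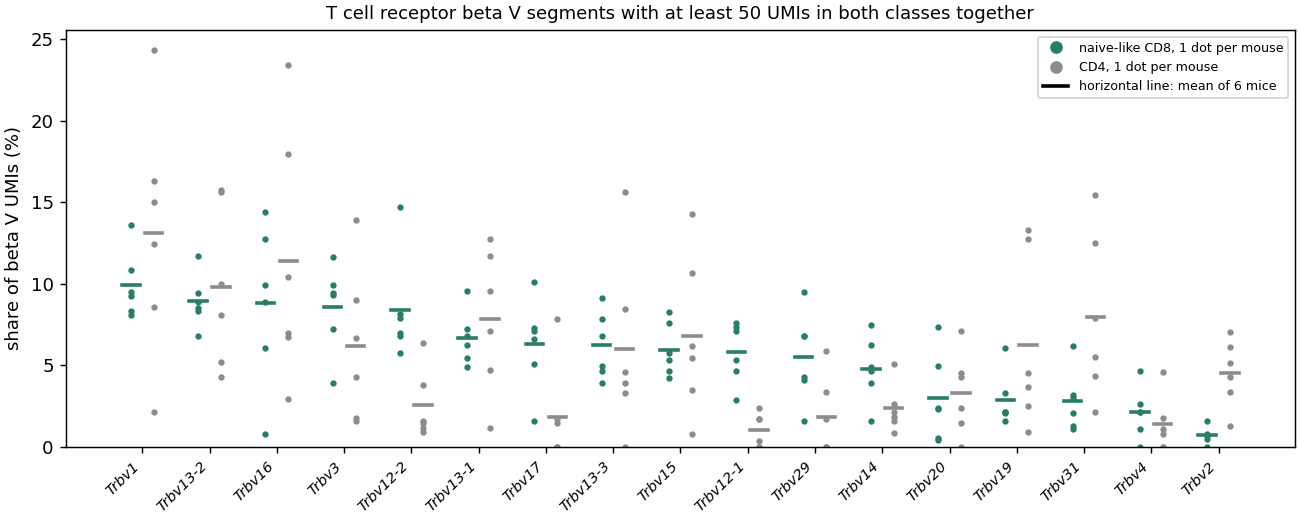
Share of T cell receptor beta V UMIs taken by each segment with at least 50 UMIs (vertical axis, percent), for naive-like CD8 and CD4 T cells; dots are the 6 mice and horizontal lines their means. Trbv12-2 and Trbv12-1 lie higher in CD8 cells and Trbv31 and Trbv2 lower. Of the segments shown, Trbv16 and Trbv1 in CD4 cells spread most (SD 7.77 and 7.50), while Trbv12-2 and Trbv12-1 spread more in CD8 than in CD4 cells.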

How the data were processed

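Cells of all 6 mice came from 1 pool on 2 lanes. The deposited counts are raw UMI counts per gene and barcode, which the authors made with Cell Ranger; per the file headers its version was 7.0.1. The submitters' processing notes name mm10 as the genome build. The mouse of each barcode was taken from the authors' hashtag calls, and only barcodes with 1 hashtag were used. From these files, cells with at least 500 UMIs and at most 10% mitochondrial UMIs were kept and selected by the stated rule. No doublet caller was run, since barcodes with several hashtags were dropped and Cd79a had to be 0.

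UMIs were summed per mouse and class, and each mouse was 1 replicate. edgeR 4.0.16 (TMM, filterByExpr, quasi-likelihood test, adjusted p under 0.05) compared genotypes, and the classes with the mouse as a block, because both classes come from the same animals. DESeq2 1.42.0 was an alternative. The 15 rule genes were left out of the tests, as were Dapl1 and Themis between classes. Shares were compared with exact permutation tests. Positions come from GENCODE vM21 (32158 of 32285 genes matched by ID), promoters from RefSeq on GRCm38.p6. Counting error limits low genes.

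Members and lists were chosen with earlier results of these data known. Genes were named if called, not overlapping between genotypes and at least 20 CPM (12 per direction), or with 1 direction in all 6 mice and at least 50 CPM (15 per direction), leaving out receptor segments and predicted genes, together with up to 4 called genes per list. Others were named after their values were seen. Scripts were tested on simulated data. A few genes are not reported here.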

Additional observations from a re-analysis of the deposited data

Results flagged for a closer look

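The KO effect differed between CD8 and CD4 T cells for 2 genes by the interaction test of edgeR. For Trbv16, a beta V segment of the T cell receptor, the CD8 effect minus the CD4 effect was -2.61 ± 0.42 (adjusted p = 1.17e-05, edgeR). In CD8 cells it was at 81.6, 61.9 and 94.3 CPM in WT1 to WT3 and 4.73, 39.4 and 48.6 CPM in KO1 to KO3. In CD4 cells it was at 43.2, 19.7 and 51.4 CPM and at 184, 107 and 72.5 CPM, so the order of the genotypes turned without overlap in either class. Neither class passed alone, and the difference passed in 14 of 17 alternatives. For Hist1h2ap, a histone gene of dividing cells, the difference was -2.44 ± 0.56 (adjusted p = 0.0441, edgeR) and passed in 4 of 11 alternatives. Its CD4 level in KO3 was 265.9 CPM, against 0 to 25.3 CPM in the other 5 mice.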

How the results depend on the processing

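Of 21 genes called between genotypes, the count was 4 with DESeq2, 8 in lane 2 alone, 10 with cells thinned to 1000 UMIs, 44 with no filter on low counts, and 32 with all coreceptor-positive cells, an alternative chosen after seeing the data. Leaving out 1 mouse gave 10 (without WT2) to 27 (without WT1). The 557 genes called between CD8 and CD4 cells became 309 with DESeq2, 265 thinned, 246 and 266 in lane 1 and lane 2 alone, and 299 with no interferon gene detected and Ccl5 at 0, and 421 to 558 without 1 mouse. Without the mouse as a block 495 were called, 492 of them shared. For the difference of the KO effect, 2 genes became 1 without follicular helper-marked CD4 cells, 1 with all coreceptor-positive cells, 1 with at least 1000 UMIs per cell and 5 with the stricter interferon and Ccl5 condition. It was 0 with both coreceptors detected (edgeR, 220 genes at an unadjusted p under 0.05), 0 with DESeq2 (62 unadjusted) and 0 in lane 2 alone (edgeR, 181 unadjusted), and 1 to 3 without 1 mouse. The cause of these changes was not tested, but thinning and single lanes leave fewer genes to test. The Pik3cg log2 fold change of 0.20 turned to -0.095 without KO2 and reached 0.49 without KO3. The difference in CD8 share of the T cells (1.32 points) ran from -1.97 to 3.57 without 1 mouse, was -0.160 without WT3, and was -0.0493 under the stricter condition. With 24 CD4 cells, KO1 limits what its CD4 values show.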
